A study of Mus musculus with 12 samples.

Results

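B cell identity genes encode the signalling chains of the B cell receptor, the kinases and adaptors behind it, the transcription factors that commit a cell to the B lineage, and the surface proteins by which B cells are recognised. The 31 genes described here were taken by symbol from the 45777 genes of the deposited table, with no immunoglobulin or MHC class II gene among them, and all 31 were found. RNA sequencing covered 12 samples of mouse splenic CD4+ T cells, 3 in each of 4 groups, and addressed how metformin, FK506 and their combination change gene expression in activated T cells. The mice were wild type C57BL/6 animals aged 7 weeks by the labels (the study's methods list an older range), and their CD4+ T cells had been collected on CD4-coated magnetic beads, with no purity given. Every group, Control included, was cultured for 3 days with anti-CD3 at 0.5 µg/ml, so that no unstimulated sample was available for comparison. The study's methods also list soluble anti-CD28 among the activation conditions, which the labels do not name. Control received no drug, Metformin received the antidiabetic drug metformin, FK506 received the calcineurin inhibitor FK506 (tacrolimus), and Metformin+FK506 received both. The doses of these cultures are not given in the sources used here. The labels do not say whether the 3 samples of a group came from separate mice or cultures, so the p-values measure the spread between these samples, which may be technical.

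A B cell recognises antigen through membrane immunoglobulin, which signals through the paired chains Cd79a and Cd79b. The kinases Lyn, Blk and Syk phosphorylate these chains, and the adaptor Blnk and the kinase Btk pass the signal on to phospholipase C and calcium release. Ebf1 and Pax5 set up and hold the B cell programme, and co-receptors such as Cr2 and Cd22 raise or lower the response. In the spleen B cells are the largest lymphocyte population, and mature CD4+ T cells do not normally use most of these genes.

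The total counts per sample ranged from 43402632 to 64290105. Levels are given as FPKM, which scales the fragments of a gene to transcript length and library size, and each set of 3 values follows samples 1, 2 and 3 of its group. The T cell markers Cd3e (150.2 to 156 FPKM in Control and 189 to 203 FPKM with FK506) and Cd4 (139 to 143 and 196 to 203 FPKM) were high in every group, as the label CD4+ T cells calls for. The summed FPKM of a list of 12 T cell genes ranged from 2138 to 2174 for Control, 2165 to 2250 for Metformin, 1781 to 1902 for FK506 and 1964 to 2031 for Metformin+FK506, and 4 of these genes were called higher and 8 lower with FK506 (7 lower with limma on log2(FPKM + 1)), where 41.3% of all genes tested were called higher and 39.6% lower. Genes of other cell types moved with FK506 as well. A list of 12 macrophage and monocyte genes summed to 4.31 to 4.52 FPKM in Control, of which Cd68 held 4.22 to 4.41 and 4 genes were at 0 in every sample. It summed to 8.43 to 9.72 FPKM with Metformin, 1330 to 1380 FPKM with FK506 and 902 to 1024 FPKM with both drugs. Most of the sum with FK506 was Lyz2. With both drugs against FK506, 4 of the 11 genes tested were called higher, 1 lower and 6 neither, with a median log2 change of 0.18. Of all genes tested 15.6% were called higher and 15.0% lower in that comparison. The defining marker Lyz2 was at 0.0397, 0 and 0.0657 FPKM in Control and at 972, 978 and 993 FPKM with FK506, and C1qa was at 0 in all Control and Metformin samples and at 43.4, 35.8 and 39.6 FPKM with FK506. A list of 10 dendritic cell genes summed to 2.73 to 2.99 FPKM in Control and 64.3 to 70.8 FPKM with FK506, with the defining marker Flt3 at 0.632 to 0.665 and 30.7 to 34.3 FPKM. A list of 8 neutrophil genes summed to 2.92 to 3.19 FPKM in Control, where 6 genes including S100a8 and S100a9 were at 0 and Ly6g held 2.84 to 3.15, and to 35.3 to 45.8 FPKM with FK506. Ly6g itself was lower with FK506, with a log2 change of -4.30. A list of 8 CD8 T and NK cell genes summed to 10.5 to 11.02 FPKM in Control and 25.03 to 25.5 FPKM with FK506. No count of calls between groups with and without FK506 is read from these 4 lists, since 10 of the 11 macrophage, 4 of the 6 dendritic cell, 6 of the 7 neutrophil and 2 of the 5 CD8 T and NK cell genes tested reached the filter on low values (an FPKM of 0.5 in 3 or more samples) only with the groups given FK506 and so had to be higher there. In these bulk samples a change in the number of cells of a type and a change in RNA per cell cannot be told apart, and the part of other cells in the values of the B cell identity genes was not tested.

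**Figure D1:**
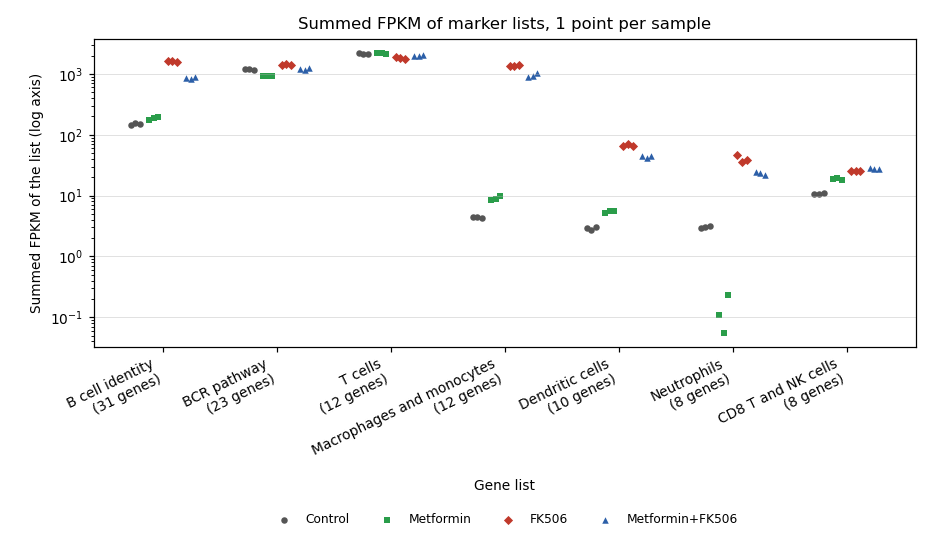
Summed FPKM of 7 gene lists (log axis), 1 point per sample, 3 samples in each of the 4 groups. The 31 B cell identity genes summed to 145 to 158 FPKM in Control and 1567 to 1641 FPKM with FK506, while the 12 T cell genes stayed between 1781 and 2250 FPKM in every group.

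FK506 was accompanied by higher levels of nearly the whole B cell programme. Against Control, 30 of the 31 genes were higher and 1, Tnfrsf13b, was lower, a sign that turned in FPKM and TPM (edgeR's quasi-likelihood test, Benjamini-Hochberg adjusted p under 0.05). Among all 15197 genes tested, 41.3% were called higher and 39.6% lower in this comparison. The median log2 fold change of the 31 genes was 3.82, against 0.024 over all genes tested. All 30 genes that were called higher had every FK506 sample above every Control sample, which was so of 51.5% of all genes tested. All 31 genes passed the filter on low values (an FPKM of 0.5 in 3 or more samples), and 27 had a mean of at least 0.5 FPKM in Control. The other 4, Cd180, Fcrl5, Fcrla and Cr2, passed through the groups with FK506 and so had to differ. Of the 31 genes, 3 were more than 64-fold higher (Fcrla, Cr2 and Cd180, all among the 4 that had to differ), where 3.17% of all genes tested were. The summed level of the 31 genes was 145 to 158 FPKM for Control, 177 to 198 FPKM for Metformin, 1567 to 1641 FPKM for FK506 and 839 to 892 FPKM for Metformin+FK506. None of these ranges overlapped. All 31 genes had their highest mean FPKM in the FK506 group. For Tnfrsf13b the mean was only 24.2 FPKM there against 23.6 FPKM in Control, and the samples of these groups overlapped.

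The starting regions of 4 of these genes are shown because the genes rose together with FK506 and the windows, chosen for their matches, hold letters of motifs known from B cell transcription factors. The sequences are RefSeq promoter windows of GRCm38.p6, which is the mm10 build named in the submitters' processing notes, and run from 250 bases before to 50 bases after an annotated start, read 5′ to 3′ on the strand of the gene. Cd79a (NCBI gene 12518) lies on the plus strand at chr7:24897497-24901858 and its window is chr7:24897247-24897546. Cd22 (NCBI gene 12483) lies on the minus strand with a window at chr7:30878979-30879278, Blnk (NCBI gene 17060) on the minus strand with a window at chr19:40994172-40994471, and Cr2 (NCBI gene 12902) on the minus strand with a window at chr1:195176670-195176969. The gene spans of Cd22 and Cr2 begin upstream of the annotated starts used for these windows, at chr7:30880342 and chr1:195176880. Capitals mark matches to the E-box CAGGTG, the EBF1 palindrome (TCCC and GGGA set apart by any 2 bases) and the octamer ATGCAAAT, each searched on both strands, so that CACCTG and ATTTGCAT are the E-box and the octamer on the other strand. No matches of different motifs overlapped.
Cd79a: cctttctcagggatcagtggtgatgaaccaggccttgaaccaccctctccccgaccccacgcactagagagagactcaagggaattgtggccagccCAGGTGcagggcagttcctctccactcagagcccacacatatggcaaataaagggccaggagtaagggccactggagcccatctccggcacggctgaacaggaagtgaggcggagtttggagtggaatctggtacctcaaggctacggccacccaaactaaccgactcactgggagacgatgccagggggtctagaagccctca
Cd22: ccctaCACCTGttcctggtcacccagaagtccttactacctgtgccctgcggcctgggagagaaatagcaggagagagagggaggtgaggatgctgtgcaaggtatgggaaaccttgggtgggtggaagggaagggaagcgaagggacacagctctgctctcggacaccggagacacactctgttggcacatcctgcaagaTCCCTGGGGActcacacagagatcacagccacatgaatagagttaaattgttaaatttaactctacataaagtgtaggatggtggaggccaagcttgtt
Blnk: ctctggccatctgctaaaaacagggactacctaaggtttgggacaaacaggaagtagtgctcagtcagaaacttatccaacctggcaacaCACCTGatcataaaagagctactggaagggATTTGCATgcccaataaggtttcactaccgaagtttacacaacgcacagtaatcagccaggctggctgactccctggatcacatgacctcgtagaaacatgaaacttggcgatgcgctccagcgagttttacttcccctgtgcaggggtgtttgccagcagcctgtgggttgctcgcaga
Cr2: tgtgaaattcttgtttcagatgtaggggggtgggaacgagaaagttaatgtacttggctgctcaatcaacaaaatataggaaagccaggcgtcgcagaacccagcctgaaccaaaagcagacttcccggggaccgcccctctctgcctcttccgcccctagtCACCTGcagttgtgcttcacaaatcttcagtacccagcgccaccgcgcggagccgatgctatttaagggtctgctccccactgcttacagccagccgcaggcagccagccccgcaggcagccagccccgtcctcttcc
The match in Cd79a begins 154 bases before the start site and that in Cr2 begins 88 bases before it. In Cd22 the E-box begins 245 bases and the palindrome 49 bases before the start, and in Blnk the E-box begins 160 bases and the octamer 130 bases before it. RefSeq windows were matched for 25 of the 31 genes, with 31 windows in all because some genes have more than 1 start. The E-box was in 11 of the 31 windows (35.5%), belonging to 10 genes, and in 20.2% of all 32851 promoter windows. The palindrome was in 2 windows (Cd22 and Chst3) and in 0.904% of all, the octamer in 2 (Blnk and Vpreb3) and in 1.74% of all, and the PU.1 core GAGGAAGT in 2 (Cd72 and Fcrl1) and in 3.20% of all. The NF-kB motif (GGGAC followed at once by TTTCC) was in 0 of the 31 windows and in 0.155% of all. A match describes the letters of the window and is not a binding site.

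The receptor chains were the most abundant of the 31 genes with FK506. Cd79a, the alpha chain of the receptor's signalling pair, was at 14.3, 12.5 and 12.5 FPKM in Control and 16.5, 19.1 and 18.99 FPKM with Metformin. It was at 299, 299.9 and 282 FPKM with FK506 and 156, 152 and 160.03 FPKM with Metformin+FK506. Every FK506 sample was far above the other groups, and the Metformin+FK506 samples lay between them and the rest. The fitted change from Control to FK506 was 4.27 ± 0.060 on the log2 scale (SE, n = 3 in each group), or 19.3-fold (edgeR's quasi-likelihood test, Benjamini-Hochberg adjusted p = 1.62e-18). Cd79b, its partner chain, was at 10.6, 11.5 and 11.2 FPKM in Control and 189.7, 189 and 168 FPKM with FK506, a log2 change of 3.82 ± 0.070. Both chains followed the same order of groups without overlap.

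**Figure D2:**
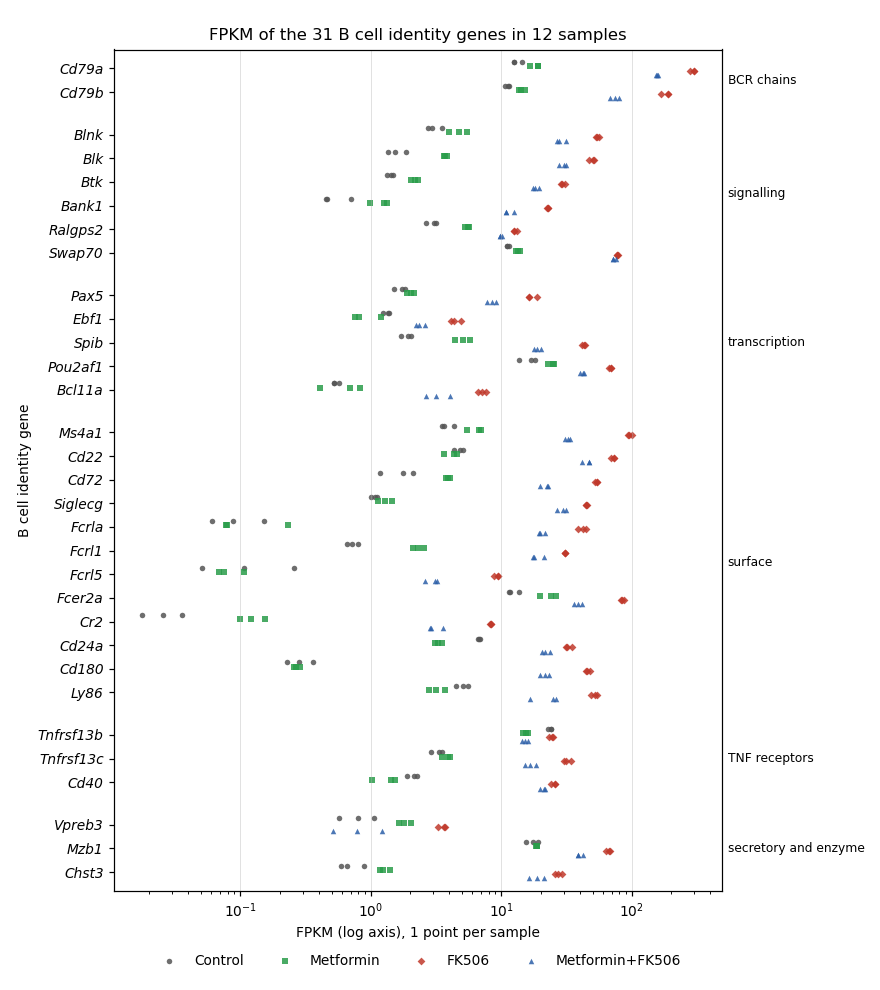
FPKM of each of the 31 genes (log axis) by role, 1 point per sample, with 3 samples in each of the 4 groups. The FK506 points stand highest for nearly every gene, Cd79a reaches 282 to 299.9 FPKM there, and Tnfrsf13b is the gene whose Control and FK506 points overlap.

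The 6 signalling genes all rose with FK506. Blnk, the adaptor that links Syk to phospholipase C, was at 2.72, 2.95 and 3.54 FPKM in Control and 55.9, 53.3 and 54.4 FPKM with FK506. Blk, a Src family kinase of B cells, was at 1.36 to 1.87 FPKM in Control and 46.8 to 51.2 FPKM with FK506, a log2 change of 4.74 ± 0.082. Btk, the kinase lost in X-linked agammaglobulinaemia, was at 1.33 to 1.48 FPKM in Control and 28.6 to 30.8 FPKM with FK506, a log2 change of 4.17 ± 0.072. The scaffold Bank1 changed most of the 6 in counts, with a log2 change of 5.15 ± 0.13 from a Control level of 0.451 to 0.704 FPKM. Over the alternative analyses its change ran from 3.69 to 5.42 and that of Blk from 4.05 to 4.89. Ralgps2, an exchange factor for Ral GTPases, changed least, by 1.89 ± 0.057. The span of its gene overlaps that of Angptl1. Overlap of exons was not checked and the use of strand in counting is not stated, so shared reads may enter its values. Swap70, a Rac-binding protein of activated B cells, was at 11.5, 11.1 and 11.1 FPKM in Control and 78.3, 76.7 and 77.5 FPKM with FK506.

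All 5 transcription factors rose with FK506. Pax5, which holds B cells to their lineage, was at 1.51, 1.84 and 1.73 FPKM in Control and 16.2, 18.7 and 16.2 FPKM with FK506, a log2 change of 3.11 ± 0.079. Ebf1, which acts with Pax5 early in the lineage, was among the genes that changed least, from 1.24, 1.38 and 1.34 FPKM to 4.12, 4.87 and 4.31 FPKM, a log2 change of 1.52 ± 0.13. The Control and FK506 samples of both genes did not overlap. Spib, an Ets factor of B cells and plasmacytoid dendritic cells, rose by 4.21 ± 0.066 on the log2 scale, and Bcl11a, a zinc finger factor of early lymphoid cells, by 3.61 ± 0.13 (2.40 with limma on log2(FPKM + 1)). Pou2af1, the coactivator that binds octamer factors, was already at 13.6 to 18.1 FPKM in Control and reached 66.8 to 69.8 FPKM with FK506, a log2 change of 1.87 ± 0.075.

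The 12 surface genes changed by 2.06 to 8.35 on the log2 scale, with a median of 4.90. The highest changes were those of Fcrla, Cr2, Cd180 and Fcrl5, which passed the filter only through the groups with FK506 and so had to be higher there. The other surface genes reached at most 5.21 (Siglecg). Ms4a1, which encodes CD20, was at 3.54, 4.31 and 3.61 FPKM in Control and 5.49, 6.79 and 6.94 FPKM with Metformin. It was at 99.6, 93.8 and 95.9 FPKM with FK506 and 30.9, 33.6 and 32.4 FPKM with both drugs. The 4 groups did not overlap, and the change from Control to FK506 was 4.44 ± 0.085 on the log2 scale, or 21.7-fold (edgeR's quasi-likelihood test, Benjamini-Hochberg adjusted p = 5.12e-17). Cr2, the complement receptor CD21 that lowers the threshold of the B cell receptor, went from 0.0256, 0.0359 and 0.0176 FPKM in Control, resting on 9 to 16 counts a sample, to 8.29, 8.13 and 8.36 FPKM with FK506. Its fitted change was 7.91 ± 0.16 on the log2 scale in counts and 3.17 with limma on log2(FPKM + 1). Fcrla, an intracellular Fc receptor-like protein of B cells, went from 0.151, 0.0873 and 0.0609 FPKM, resting on 7 to 15 counts a sample, to 44.5, 42.2 and 38.4 FPKM, the largest change of the 31 genes at 8.35 ± 0.19 on the log2 scale, or 5.28 with limma on log2(FPKM + 1). Cd180, a Toll-like receptor homologue that pairs with Ly86, was at 0.227 to 0.358 FPKM in Control and 44.9 to 47.5 FPKM with FK506, a log2 change of 7.10 ± 0.095. Its partner Ly86 changed by 3.12 ± 0.14, from a Control level of 4.47 to 5.60 FPKM.

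The other surface genes, some of them inhibitory receptors, rose as well. Cd22, a sialic acid-binding inhibitor of the receptor, was at 4.31, 5.11 and 4.83 FPKM in Control and 68.99, 72.7 and 73.2 FPKM with FK506, a log2 change of 3.69 ± 0.074. Siglecg, a related inhibitor, changed by 5.21 ± 0.083 and Cd72, a C-type lectin with an inhibitory motif, by 4.64 ± 0.11 on the log2 scale. The Fc receptor-like genes Fcrl1 and Fcrl5 changed by 5.15 ± 0.092 and 5.64 ± 0.25, with Fcrl5 in Control at 0.0505, 0.257 and 0.107 FPKM from 8 to 38 counts a sample and a log2 change of 3.17 with limma on log2(FPKM + 1). Fcer2a, the low-affinity IgE receptor CD23, was at 11.5 to 13.7 FPKM in Control and 82.95 to 86.5 FPKM with FK506. Cd24a, a surface glycoprotein of immature B cells that other leukocytes also carry, changed by 2.06 ± 0.071, the least of the 12.

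The TNF receptors did not move together. Tnfrsf13c, the receptor for the survival factor BAFF, was at 2.88, 3.52 and 3.31 FPKM in Control and 34.3, 31.1 and 30.3 FPKM with FK506, a log2 change of 3.07 ± 0.091. Cd40, the receptor for the CD40 ligand of helper T cells, was at 1.89 to 2.28 FPKM in Control and 23.9 to 25.9 FPKM with FK506, a log2 change of 3.35 ± 0.10. Tnfrsf13b, which encodes TACI, another receptor for BAFF and APRIL, was at 24.2, 23.8 and 22.6 FPKM in Control and 24.98, 24.3 and 23.2 FPKM with FK506, and these groups overlapped. Its log2 change was -0.18 ± 0.039 in counts scaled by TMM (edgeR's quasi-likelihood test, Benjamini-Hochberg adjusted p = 4.71e-04) and turned to 0.036 with limma on log2(FPKM + 1) and to 0.27 with limma on log2(TPM + 1), where it was called higher, so that no direction can be given. The gene overlaps Usp22 in the annotation, as Cd72 overlaps Tesk1 and Fcer2a overlaps Trappc5, so that shared reads may enter their values.

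The remaining 3 genes also rose. Mzb1, an endoplasmic reticulum protein of marginal zone B cells and plasma cells, was at 15.5, 19.3 and 17.4 FPKM in Control and 67.7, 66.4 and 63.1 FPKM with FK506. Vpreb3, a relative of the surrogate light chain, was at 1.06, 0.795 and 0.571 FPKM in Control and 3.60, 3.29 and 3.72 FPKM with FK506, the lowest level of the 31 genes with FK506. Chst3, a chondroitin sulphotransferase, rose by 5.11 ± 0.091 on the log2 scale from 0.594 to 0.878 FPKM.

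Metformin alone was accompanied by smaller changes in both directions. Against Control, 20 of the 31 genes were higher, 5 lower and 6 past neither side of the threshold (edgeR's quasi-likelihood test, Benjamini-Hochberg adjusted p under 0.05), where 28.6% of all genes tested were called higher and 27.4% lower. The median log2 fold change was 0.40, against 0.011 over all genes tested. With limma on log2(FPKM + 1) 16 genes were higher and 5 lower, and with DESeq2 20 were higher and 7 lower. Of the 31 genes, 19 had every Metformin sample above every Control sample and 5 had every sample below, against 36.0% and 29.0% of all genes tested.

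Cr2 had the highest fitted change with metformin alone, from 0.0256, 0.0359 and 0.0176 FPKM to 0.09997, 0.153 and 0.121 FPKM, a log2 change of 2.17 ± 0.25 in counts that left it at low levels in both groups. With limma on log2(FPKM + 1) the change of Cr2 was 0.13 and not past the threshold, below those of Spib (1.06) and Fcrl1 (0.95). Fcrl1 went from 0.719, 0.652 and 0.790 to 2.11, 2.31 and 2.54 FPKM (1.57 ± 0.11), and Spib from 1.72, 2.05 and 1.94 to 4.44, 5.06 and 5.72 FPKM (1.34 ± 0.069). In these genes the Metformin samples lay above all Control samples. Blk (1.20 ± 0.091), Cd72 (1.19 ± 0.12), Bank1 (1.11 ± 0.15), Vpreb3 (1.03 ± 0.27) and Fcer2a (0.89 ± 0.082) followed on the log2 scale. With limma on log2(FPKM + 1) these were 0.88 for Blk, 0.88 for Cd72, 0.51 for Bank1, 0.65 for Vpreb3 and 0.87 for Fcer2a. The receptor chains rose by little, Cd79a by 0.44 ± 0.062 and Cd79b by 0.34 ± 0.074, and Ms4a1 by 0.71 ± 0.088. The 5 genes that fell were Cd24a (-1.06 ± 0.079), Tnfrsf13b (-0.71 ± 0.040), Ly86 (-0.69 ± 0.16), Cd40 (-0.67 ± 0.12) and Ebf1 (-0.57 ± 0.14). Cd24a was at 6.57, 6.78 and 6.83 FPKM in Control and 3.11, 3.26 and 3.53 FPKM with Metformin, and Tnfrsf13b at 15.4, 14.7 and 15.9 FPKM with Metformin, below every Control sample. Cd22 (-0.17 ± 0.079), Fcrla (0.37 ± 0.44), Fcrl5 (-0.83 ± 0.41), Cd180 (-0.11 ± 0.18), Tnfrsf13c (0.20 ± 0.097) and Mzb1 (0.088 ± 0.071) did not pass the threshold. Among these Cd22 (-0.17) and Fcrl5 (-0.84) were called lower with DESeq2, and both also passed without Control sample 1 (-0.25 and -1.16), as Cd22 did without Metformin sample 3 (-0.24). The calls of Pax5 (0.22), Bcl11a (0.40) and Siglecg (0.29) were lost when single samples were left out, with Pax5 at 0.15 without Control sample 1, Bcl11a at 0.31 without the same sample and Siglecg at 0.19 without Metformin sample 2. The same 3 genes were not past the threshold with limma on log2(FPKM + 1), at 0.17, 0.085 and 0.15.

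**Figure D3:**
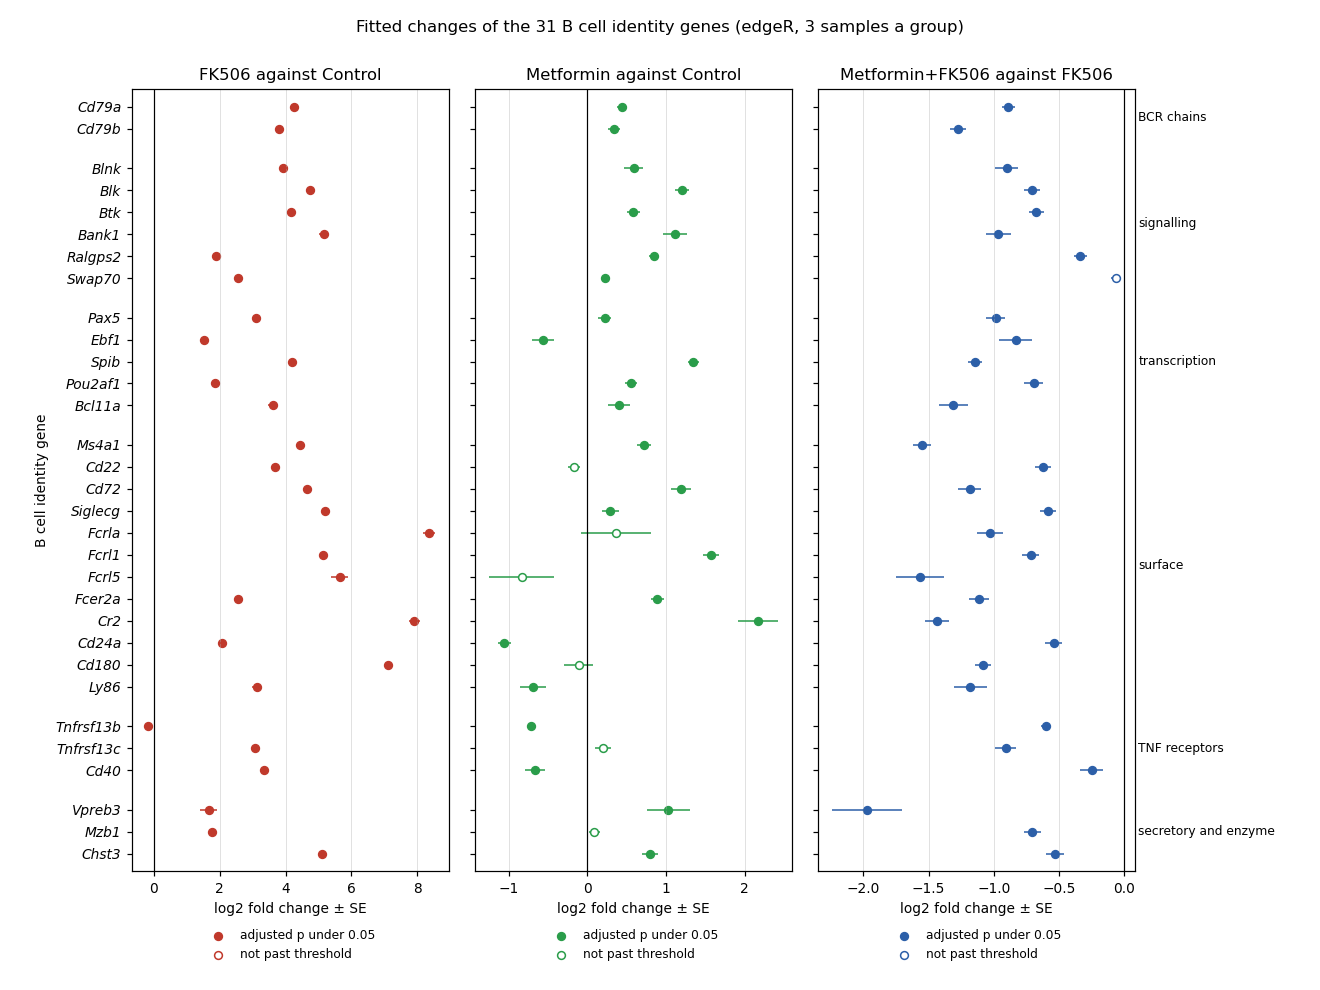
Log2 fold changes ± SE of the 31 genes by role in 3 comparisons, with 3 samples a group, where filled points passed the adjusted p threshold of 0.05 and the horizontal scales differ between panels. FK506 against Control reaches 8.35 for Fcrla, Metformin against Control runs from -1.06 for Cd24a to 2.17 for Cr2, and Metformin+FK506 against FK506 runs from -1.97 for Vpreb3 to -0.063 for Swap70.

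Metformin added to FK506 was accompanied by lower levels across the list. Against FK506 alone, 30 of the 31 genes were lower with Metformin+FK506 and 1, Swap70, did not pass the threshold (edgeR's quasi-likelihood test, Benjamini-Hochberg adjusted p under 0.05), where 15.0% of all genes tested were called lower and 15.6% higher. The number called higher was 0, and it was 0 also at an unadjusted p under 0.05 with edgeR, DESeq2 and limma on log2(FPKM + 1). All 31 genes had every Metformin+FK506 sample below every FK506 sample in FPKM, which was so of 22.2% of all genes tested. The median log2 fold change was -0.90, against 0.0019 over all genes tested. The mean FPKM with both drugs was 52.7% of that with FK506 alone at the median of the 31 genes, with 14 genes at 40 to 60%, 4 below 40% and 13 above 60%. Over the same samples the macrophage list summed to 1330 to 1380 FPKM with FK506 and 902 to 1024 FPKM with both drugs, the dendritic cell list to 64.3 to 70.8 and 41.5 to 45.6 FPKM, the neutrophil list to 35.3 to 45.8 and 22.0 to 24.5 FPKM, and the T cell list to 1781 to 1902 and 1964 to 2031 FPKM. The macrophage sum with FK506 was mostly Lyz2. Of the 11 macrophage genes tested 4 were called higher, 1 lower and 6 neither, with a median log2 change of 0.18. Of the 6 dendritic cell genes tested 1 was called higher and 3 lower, of the 7 neutrophil genes 0 and 2, and of the 12 T cell genes 5 and 2. The part of these cell types in the lower levels of the 31 genes was not tested.

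The chains of the receptor differed in how much they fell. Cd79b went from 189.7, 189 and 168 FPKM to 67.6, 74.2 and 79.9 FPKM (-1.28 ± 0.060), and Cd79a from 299, 299.9 and 282 FPKM to 156, 152 and 160.03 FPKM (-0.89 ± 0.049). Ms4a1 fell to 30.9, 33.6 and 32.4 FPKM, 33.5% of its FK506 mean and a log2 change of -1.55 ± 0.071 (edgeR's quasi-likelihood test, Benjamini-Hochberg adjusted p = 2.55e-10). Cr2 fell to 2.82, 2.90 and 3.57 FPKM (-1.44 ± 0.093) and Fcrl5 to 3.11, 2.58 and 3.22 FPKM (-1.57 ± 0.18). Vpreb3 had the lowest fitted change, to 0.511, 0.788 and 1.22 FPKM, 23.7% of its FK506 mean and a log2 change of -1.97 ± 0.27, from the fewest counts of the list with both drugs (22 to 39 a sample). With limma on log2(FPKM + 1) its change was -1.32, smaller than that of Ms4a1 (-1.55). These 4 genes, Ms4a1, Cr2, Fcrl5 and Vpreb3, were the ones below 40% of their FK506 level.

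Among the transcription factors the log2 change was -1.31 ± 0.11 for Bcl11a, -1.15 ± 0.054 for Spib, -0.99 ± 0.070 for Pax5, -0.83 ± 0.13 for Ebf1 and -0.69 ± 0.072 for Pou2af1. Pax5 was at 8.55, 7.77 and 9.06 FPKM with both drugs. The signalling genes changed by -0.97 (Bank1), -0.90 (Blnk), -0.71 (Blk), -0.68 (Btk) and -0.34 (Ralgps2). Swap70 was at 78.3, 76.7 and 77.5 FPKM with FK506 and 75.9, 71.9 and 71.2 FPKM with both drugs, a log2 change of -0.063 ± 0.036 that did not pass the threshold although its samples did not overlap. Over the 12 surface genes the log2 changes ran from -1.57 to -0.54, with Cd72 at -1.19, Ly86 at -1.18, Fcer2a at -1.12, Cd180 at -1.08, Fcrla at -1.03, Fcrl1 at -0.72, Cd22 at -0.62 and Siglecg at -0.59. Tnfrsf13c changed by -0.91 ± 0.080, Tnfrsf13b by -0.60 ± 0.040, Mzb1 by -0.71 ± 0.065 and Chst3 by -0.53 ± 0.068. Cd40 changed by -0.25 ± 0.087, and its call was lost without FK506 sample 1 (-0.24) or sample 2 (-0.24) and without any Metformin+FK506 sample (-0.28 to -0.23).

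The change with metformin differed with and without FK506 for most of the list. The interaction is the log2 change with metformin in the presence of FK506 minus that in its absence. It was below 0 and past the threshold for 25 genes, above 0 for 2 and not past the threshold for 4 (edgeR's quasi-likelihood test, Benjamini-Hochberg adjusted p under 0.05), where 24.0% of all genes tested were called below and 22.5% above 0 (46.5% in either direction). The median interaction was -1.26, against -0.020 over all genes tested. In the separate comparisons, which share no sample, 19 genes were called higher with metformin alone and lower when metformin was added to FK506, and 5 were called lower in both, against 4.14% and 5.68% of all genes tested. Cr2 had the largest interaction in counts at -3.61 ± 0.26, with Metformin above Control and Metformin+FK506 below FK506 in every sample. With limma on log2(FPKM + 1) it was -1.31 for Cr2, past the threshold but smaller than for Spib (-2.20) and Ms4a1 (-2.17). Vpreb3 (-3.001 ± 0.38), Spib (-2.49 ± 0.088), Cd72 (-2.37 ± 0.15), Fcrl1 (-2.29 ± 0.12), Ms4a1 (-2.27 ± 0.11) and Bank1 (-2.08 ± 0.18) followed. Cd24a (0.52 ± 0.10) and Cd40 (0.42 ± 0.15) were above 0, and both fell more with metformin alone than with metformin added to FK506. Ebf1 (-0.26 ± 0.19), Fcrl5 (-0.73 ± 0.47), Ly86 (-0.49 ± 0.21) and Tnfrsf13b (0.11 ± 0.056) did not pass the threshold. The call of Cd40 was lost under leaving out single samples, down to 0.26 without Metformin sample 1, that of Fcrla (-1.40) fell to -0.66 without the same sample, and Fcrl5 reached -1.49 and passed without Control sample 2. Ly86 passed without Metformin sample 2 (-0.58), Metformin+FK506 sample 1 (-0.56) or Metformin+FK506 sample 3 (-0.61) and with DESeq2 (-0.50). With limma on log2(FPKM + 1) Ebf1 (-0.40), Fcrl5 (-1.30) and Ly86 (-0.66) passed and Cd40 (0.16) did not.

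**Figure D4:**
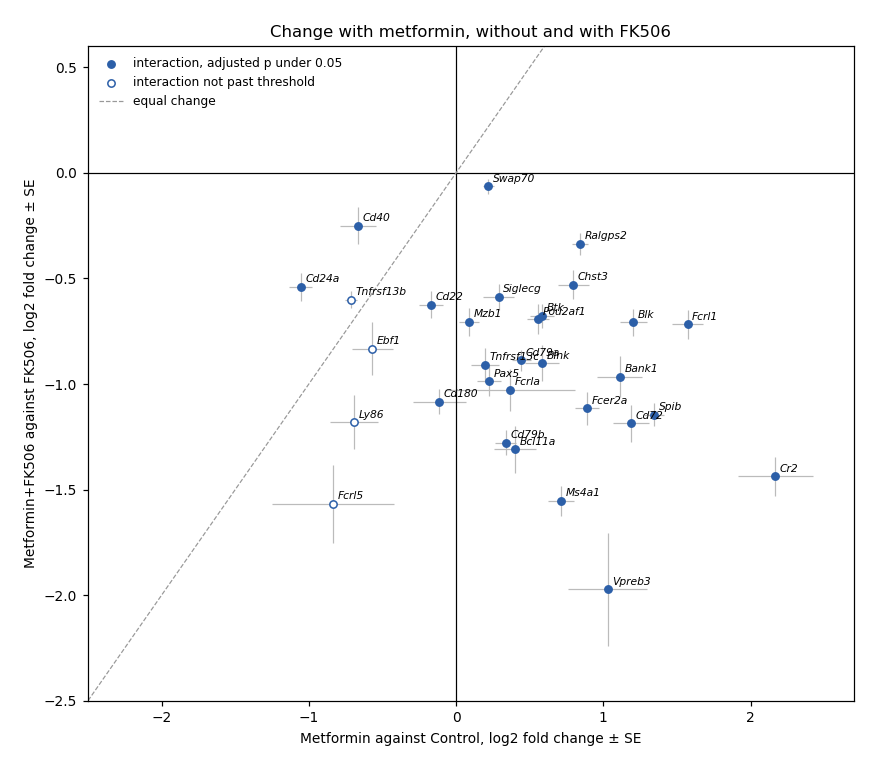
Log2 fold change with metformin in the absence of FK506 (horizontal) against that in its presence (vertical) for the 31 genes, with SE bars, where filled points passed the interaction test at an adjusted p of 0.05 and the dashed line marks equal change. All 31 points lie below 0 on the vertical axis, and Cr2 sits at 2.17 and -1.44.

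Levels with both drugs stayed above those without FK506 for all but a few genes. Metformin+FK506 was higher than Metformin in 29 genes, lower in 1 and not past the threshold in 1 (40.3% and 37.9% of all genes tested were called higher and lower), and the median log2 change was 2.44. Against Control it was higher in 29, lower in 1 and not past the threshold in 1 (42.1% and 39.6% of all genes tested), with a median of 3.02. Both counts are from edgeR's quasi-likelihood test, and the comparisons share the Metformin+FK506 samples. The 29 include Cd180, Fcrl5, Fcrla and Cr2, which passed the filter only through the groups with FK506 and so had to be higher there. The log2 change of Cd180 was 6.13 from Metformin and 6.01 from Control in counts (4.14 and 4.12 with limma on log2(FPKM + 1)), and that of Fcrla 6.95 and 7.32 (4.24 and 4.28), both from few counts without FK506. Vpreb3 was the exception, at 1.79, 1.66 and 2.04 FPKM with Metformin and 0.511, 0.788 and 1.22 FPKM with both drugs, a log2 change of -1.33 ± 0.27. Against Control its log2 change of -0.30 ± 0.29 did not pass the threshold, and it turned to 0.015 with limma on log2(FPKM + 1). Tnfrsf13b was lower with both drugs than in Control (-0.78 ± 0.040), with 14.4, 15.2 and 15.98 FPKM below every Control sample, and its change from Metformin (-0.067 ± 0.040) did not pass the threshold and turned to 0.30, called higher, with limma on log2(TPM + 1). Fcer2a (0.54 ± 0.078), Pou2af1 (0.62 ± 0.073) and Ralgps2 (0.72 ± 0.054) rose least above Metformin.

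The order of the 31 genes by level differed between cultures without and with FK506. In Control Tnfrsf13b had the highest mean at 23.6 ± 0.80 FPKM (SD, n = 3), followed by Mzb1 at 17.4 ± 1.9 and Pou2af1 at 16.2 ± 2.3, whose samples overlapped, and Cd79a at 13.1 ± 1.0. With Metformin Pou2af1 (24.3 ± 1.3 FPKM) and Fcer2a (23.4 ± 3.3 FPKM) led and overlapped. With FK506 Cd79a led at 294 ± 10 FPKM, followed by Cd79b at 182 ± 13, Ms4a1 at 96.4 ± 2.9 and Fcer2a at 84.3 ± 1.9, with no overlap between these neighbours. Tnfrsf13b stood at rank 23 there. With both drugs Cd79a led at 156 ± 4.0 FPKM, Cd79b (73.9 ± 6.2 FPKM) and Swap70 (73.0 ± 2.5 FPKM) overlapped, and Ms4a1 was at rank 8. Across the 31 genes the Spearman correlation of the mean FPKM was 0.62 between Control and FK506, 0.92 between Control and Metformin, and 0.96 between FK506 and Metformin+FK506. These correlations are descriptions across genes, whose lengths and annotation are the same in every group.

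Ratios to Cd79a within a sample show how unequal the changes were. Tnfrsf13b stood at 1.80 ± 0.11 times Cd79a in Control and 0.85 ± 0.083 with Metformin (SD, n = 3), and at 0.082 ± 0.0013 with FK506 and 0.097 ± 0.0043 with both drugs. Mzb1 went from 1.34 ± 0.23 in Control to 0.224 ± 0.0026 with FK506, and Pou2af1 from 1.25 ± 0.26 to 0.234 ± 0.013. All 3 genes had a mean above that of Cd79a in Control and below it with FK506. In the other direction Cd180 went from 0.022 ± 0.0035 to 0.157 ± 0.0038 and Fcrla from 0.0074 ± 0.0029 to 0.142 ± 0.0063. Btk stayed near its ratio, at 0.108 ± 0.014 in Control and 0.119 ± 0.0048 with Metformin, and at 0.101 ± 0.0073 with FK506 and 0.117 ± 0.0048 with both drugs. Between FK506 and Metformin+FK506 the ratio of Ms4a1 went from 0.329 ± 0.014 to 0.207 ± 0.012, that of Swap70 from 0.264 ± 0.0098 to 0.468 ± 0.021, and that of Blnk from 0.186 ± 0.0077 to 0.184 ± 0.013.

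The other genes of the B cell receptor pathway, a list of 23 that T and myeloid cells also use in large part, split in direction with FK506. Of these 17 were higher, 5 lower and 1 not past the threshold (41.3% and 39.6% of all genes tested were called higher and lower), the median log2 fold change being 0.81, and limma on log2(FPKM + 1) called 18 higher and 4 lower. The inhibitory Fc receptor Fcgr2b (5.95 ± 0.13), the kinases Syk (4.90 ± 0.063) and Lyn (4.07 ± 0.079) and the exchange factor Rasgrp3 (4.63 ± 0.070) had the highest changes with FK506, and Fcgr2b was the 1 gene of the list that passed the filter only through the groups with FK506. The 5 that fell were Lilrb4a (-1.37 ± 0.044), Malt1 (-0.99 ± 0.041), Cd5 (-0.57 ± 0.037), Cd81 (-0.56 ± 0.037) and Pik3cd (-0.25 ± 0.039), all of them abundant in Control, where Cd81 was lowest at 76.8 to 79.5 FPKM, and the Pik3cd samples overlapped in FPKM. When metformin was added to FK506, 15 of the 23 fell, 8 did not pass the threshold and 0 rose (15.0% and 15.6% of all genes fell and rose), with 0 higher also at an unadjusted p under 0.05 in edgeR, DESeq2 and limma on log2(FPKM + 1). Rasgrp3 (-0.88 ± 0.054) was among those that fell. With metformin alone 13 rose and 8 fell, where 28.6% and 27.4% of all genes tested did so. The interaction was past the threshold and below 0 in 15 and above 0 in 4, where 24.0% and 22.5% of all genes were.

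Markers of B cell stages and ligands of B cells, which T cells in part make, also moved both ways. Of 23 stage genes 17 were tested, and with FK506 11 rose, 3 fell and 3 did not pass the threshold, where 41.3% of all genes tested rose and 39.6% fell. Of these Jchain, S1pr3 and Vpreb1 passed the filter only through the groups with FK506 and so had to be higher there. All 4 marginal zone genes were higher, Cd1d1 by 4.70 ± 0.16 and S1pr3 by 4.40 ± 0.15 on the log2 scale, and the joining chain Jchain of secreted IgM and IgA went from 0.333, 0.214 and 0.516 FPKM to 30.9, 27.1 and 28.9 FPKM (6.11 ± 0.16). Bcl6, a factor of germinal centre B cells and of follicular helper T cells, rose by 3.63 ± 0.061, while Dntt was among the genes that fell, with a log2 change of -2.77 ± 0.43. The 5 genes of B cell precursors did not share a pattern. Igll1 and Rag2 were at 0 FPKM in all 12 samples, and Rag1 was at most at 0.0322 FPKM in any sample. Vpreb1, a surrogate light chain gene that may share reads with its close copy Vpreb2, was at 0.240, 0.118 and 0.220 FPKM in Control and 0.524, 0.332 and 0.443 FPKM with FK506 (0.91 ± 0.39), and Dntt was at 2.58, 2.35 and 1.98 FPKM in Control and 0.362, 0.349 and 0.441 FPKM with FK506. When metformin was added to FK506, 5 stage genes rose and 6 fell, where 15.6% and 15.0% of all genes did so. Among the stage genes past the threshold S1pr3 (-1.49 ± 0.12) and Jchain (-1.13 ± 0.11) fell most, while a germinal centre gene at -1.56 did not pass. Of 7 ligand genes 5 were tested, and with FK506 2 rose and 3 fell, where 41.3% and 39.6% of all genes did so. The B cell helper cytokines Il4 (-6.57 ± 0.32), Il21 (-6.39 ± 0.13) and Il5 (-5.44 ± 0.32) fell with FK506, with Il4 at 39.03 to 43.8 FPKM in Control and 0.137 to 0.670 FPKM with FK506, whereas Tnfsf13b, which encodes BAFF, was at 0 to 0.0511 FPKM (0 to 7 counts a sample) in Control and 0.695 to 1.23 FPKM with FK506. It passed the filter only through the groups with FK506 and so had to be higher there. Cd40lg was at 13.8 to 15.9 FPKM in Control and 20.3 to 21.8 FPKM with FK506. When metformin was added to FK506, edgeR's test called 0 of the 5, with 2 at an unadjusted p under 0.05 (DESeq2 0 and 2, limma on log2(FPKM + 1) 0 and 1).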

How the data were processed

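The authors deposited, for 12 samples, read counts per gene as whole numbers, FPKM values scaled to transcript length and library size, and TPM values scaled to the same total in every sample. The submitters' processing notes name bcl2fastq 2.20.0, Trimmomatic, HISAT2 2.1.0, StringTie 2.1.3b and mm10, with no role or order. Strand use and the handling of shared reads are not given in the sources used here, so genes overlapping others are uncertain. Genes reaching an FPKM of 0.5 in 3 or more samples (15197, all 31 B cell identity genes among them) were tested on the deposited counts with edgeR 4.0.16 (TMM, glmQLFit, glmQLFTest) in R 4.3.3, in 1 fit of the 4 groups with 8 residual degrees of freedom. Calls had a Benjamini-Hochberg adjusted p under 0.05 over all genes tested, and ± in comparisons is the SE. Fitted folds use TMM and differ somewhat from ratios of FPKM. DESeq2 1.42.0, limma 3.58.1, other scalings and filters, a replicate block and leaving out each sample were alternatives. Replicates differed by more than sampling noise (chi-square per degree of freedom 4.19 to 17.1). None of the 31 genes was at the floor of 3 counts throughout a group, a limit that covers counting error only. The 31 genes are all accounted for by role. Other named genes are those past the threshold with the largest changes of their list (up to 4), those against its majority and defining markers, except that some genes of the lists are counted but not reported here by name. The members and the lists were chosen with earlier results of these data known. The labels give no batch or date.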

Additional observations from a re-analysis of the deposited data

Results flagged for a closer look

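For 27 of the 31 B cell identity genes the log2 change with metformin in the presence of FK506 differed from that in its absence by edgeR's interaction test (Benjamini-Hochberg adjusted p under 0.05), where 46.5% of all genes tested did so. The interaction was -3.61 for Cr2, -3.001 for Vpreb3, -2.49 for Spib, -2.37 for Cd72, -2.29 for Fcrl1, -2.27 for Ms4a1, -2.08 for Bank1, -2.004 for Fcer2a, -1.91 for Blk, -1.71 for Bcl11a, -1.61 for Cd79b and -1.49 for Blnk. It was -1.40 for Fcrla, -1.33 for Cd79a, -1.33 for Chst3, -1.26 for Btk, -1.25 for Pou2af1, -1.21 for Pax5, -1.18 for Ralgps2 and -1.11 for Tnfrsf13c. It was -0.97 for Cd180, -0.88 for Siglecg, -0.79 for Mzb1, -0.45 for Cd22 and -0.28 for Swap70, and above 0 for Cd24a (0.52) and Cd40 (0.42). Over the same 4 groups the macrophage list summed to at most 9.72 FPKM without FK506 and to at least 902 FPKM with it, and the part of other cells in these interactions was not tested. With 3 samples a group, single samples were not examined for distance from the rest of their group.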

How the results depend on the processing

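The median log2 fold change of the 31 genes stayed between 2.93 and 4.20 for FK506 against Control, 0.22 and 0.46 for Metformin against Control, -0.97 and -0.86 for Metformin+FK506 against FK506, 2.25 and 2.80 against Metformin, 2.57 and 3.19 against Control, and -1.33 and -1.03 for the interaction, over all alternatives. With TPM, added after seeing the data, the median log2 fold change of all genes was 0.42, 0.45 and 0.43, in place of 0.024, 0.025 and 0.033 in counts scaled by TMM, in the comparisons of FK506 with Control and of both drugs with Metformin and with Control. The gene lower with FK506 than in Control, Tnfrsf13b, was not called lower under limma on log2(FPKM + 1), log2(FPKM + 0.1), quantile-normalized log2(FPKM + 1) or log2(TPM + 1) (0 genes each). Its change turned to 0.036, 0.037 and 0.27 under FPKM + 1, FPKM + 0.1 and TPM, to 0.30 for both drugs against Metformin under TPM (called higher in both comparisons under TPM), and its interaction to -0.048, -0.050 and -0.057 under FPKM + 1, FPKM + 0.1 and quantile normalization. Vpreb3 for both drugs against Control turned to 0.015, 0.012 and 0.19 under FPKM + 1, FPKM + 0.1 and TPM. For Metformin against Control, Cd180 turned to 0.063 without Control sample 1 (range -0.25 to 0.063 over single samples left out) and Fcrla to -0.37 without Metformin sample 1 (range -0.37 to 0.76). The genes called lower with both drugs numbered 2 against Metformin without a filter and under quantile normalization, and 2 against Control under quantile normalization. The genes with an interaction above 0 numbered 1 under upper quartile normalization, without a filter, and under FPKM + 1, FPKM + 0.1, quantile normalization and TPM, and 1 to 2 when single samples were left out (1 without Control sample 1 or 2, Metformin sample 1, FK506 sample 3 or Metformin+FK506 sample 1). The cause of these changes was not tested.

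The 18 same-numbered pairs had correlations of deviations from -0.065 to 0.047. These values cannot tell whether replicate numbers pair the samples, since samples of a shared source need not deviate together. A replicate block left 29 genes lower with both drugs than with FK506 in place of 30 and changed no other count of B cell identity genes called.

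Depth limits the genes with the fewest counts in Control, Cr2 with 9 to 16 counts, Fcrla with 7 to 15 counts and Fcrl5 with 8 to 38 counts a sample.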
